A study of Caenorhabditis elegans with 2 samples.

Results

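The 7 genes described here encode the oligosaccharyltransferase and the enzyme that makes dolichol-phosphate mannose in Caenorhabditis elegans. They were taken by name from the Ensembl annotation of WBcel235, the assembly with ce11 coordinates, and are 7 of its 19985 protein-coding genes: stt-3, ribo-1, ostb-1, ostd-1, dad-1, dpm-1 and dpm-3. Binding of LET-607, a bZIP transcription factor of the CREB3 family, was measured near them by ChIP-seq, that is, by sequencing DNA precipitated with the protein. There was 1 group of 2 biological replicates. Each replicate was whole hermaphrodite young adults of strain YL529, taken 67 h after larvae starved at the L1 stage were released. All animals carried a stable transgene for LET-607 with GFP and FLAG tags at its C-terminus, and the immunoprecipitation used an antibody against GFP. The labels do not name the promoter that drives the transgene. Whole animals were used, so stronger binding in each cell and binding in more cells cannot be told apart.

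N-glycosylation attaches a preassembled sugar chain to proteins as they enter the endoplasmic reticulum (ER). The chain is built on the lipid dolichol, and the oligosaccharyltransferase moves it from the lipid onto asparagine residues of the new protein beside the translocation channel. Mannose reaches the inside of the ER as dolichol-phosphate mannose, which also feeds the synthesis of GPI anchors. CREB3 family factors are anchored in the ER membrane and are known in mammals for raising the capacity of the secretory pathway.

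Of the 7 genes, 6 had a summit of the authors' reproducible peak list in their promoter window, against 7.76% of all protein-coding genes (1550 genes; exact 95% interval 7.39 to 8.14%, counting error only). The window ran from 1000 bp upstream to 200 bp downstream of the annotated 5′ end. That list held the 2372 peaks past the authors' threshold on the irreproducible discovery rate (IDR), and these were the 2372 strongest of the 26789 peaks called on the pooled data. The exception was dpm-1, which had only weak peaks of the relaxed lists, in which most peaks did not pass the IDR threshold. A pooled relaxed summit lay in the windows of all 7 genes and in 36.4% of all protein-coding windows. With 1 group and no control list analysed here, no test was made, and these are descriptions of 1 peak set. The members were named with earlier results of these data known.

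The order of signal was dad-1, dpm-3, ostd-1, ribo-1, ostb-1 and stt-3, from 539 down to 96.2. The signal is the authors' value per peak, has no stated unit and was compared only within a list. The median over the IDR list was 122, so 5 of the 6 peaks lay above it and that of stt-3 below. By definition these 5 are the ones in the stronger 50% of the IDR list, which had a summit in the window of 4.25% of all protein-coding genes. The lowest signal in the IDR list was 78.2, and the next peak of the pooled list, just outside it, had 78.1. Among the 7 genes, stt-3 lay closest inside this limit, at rank 1743, and dpm-1 lay outside it with a pooled signal of 34.9 at rank 8925.

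**Figure D1:**
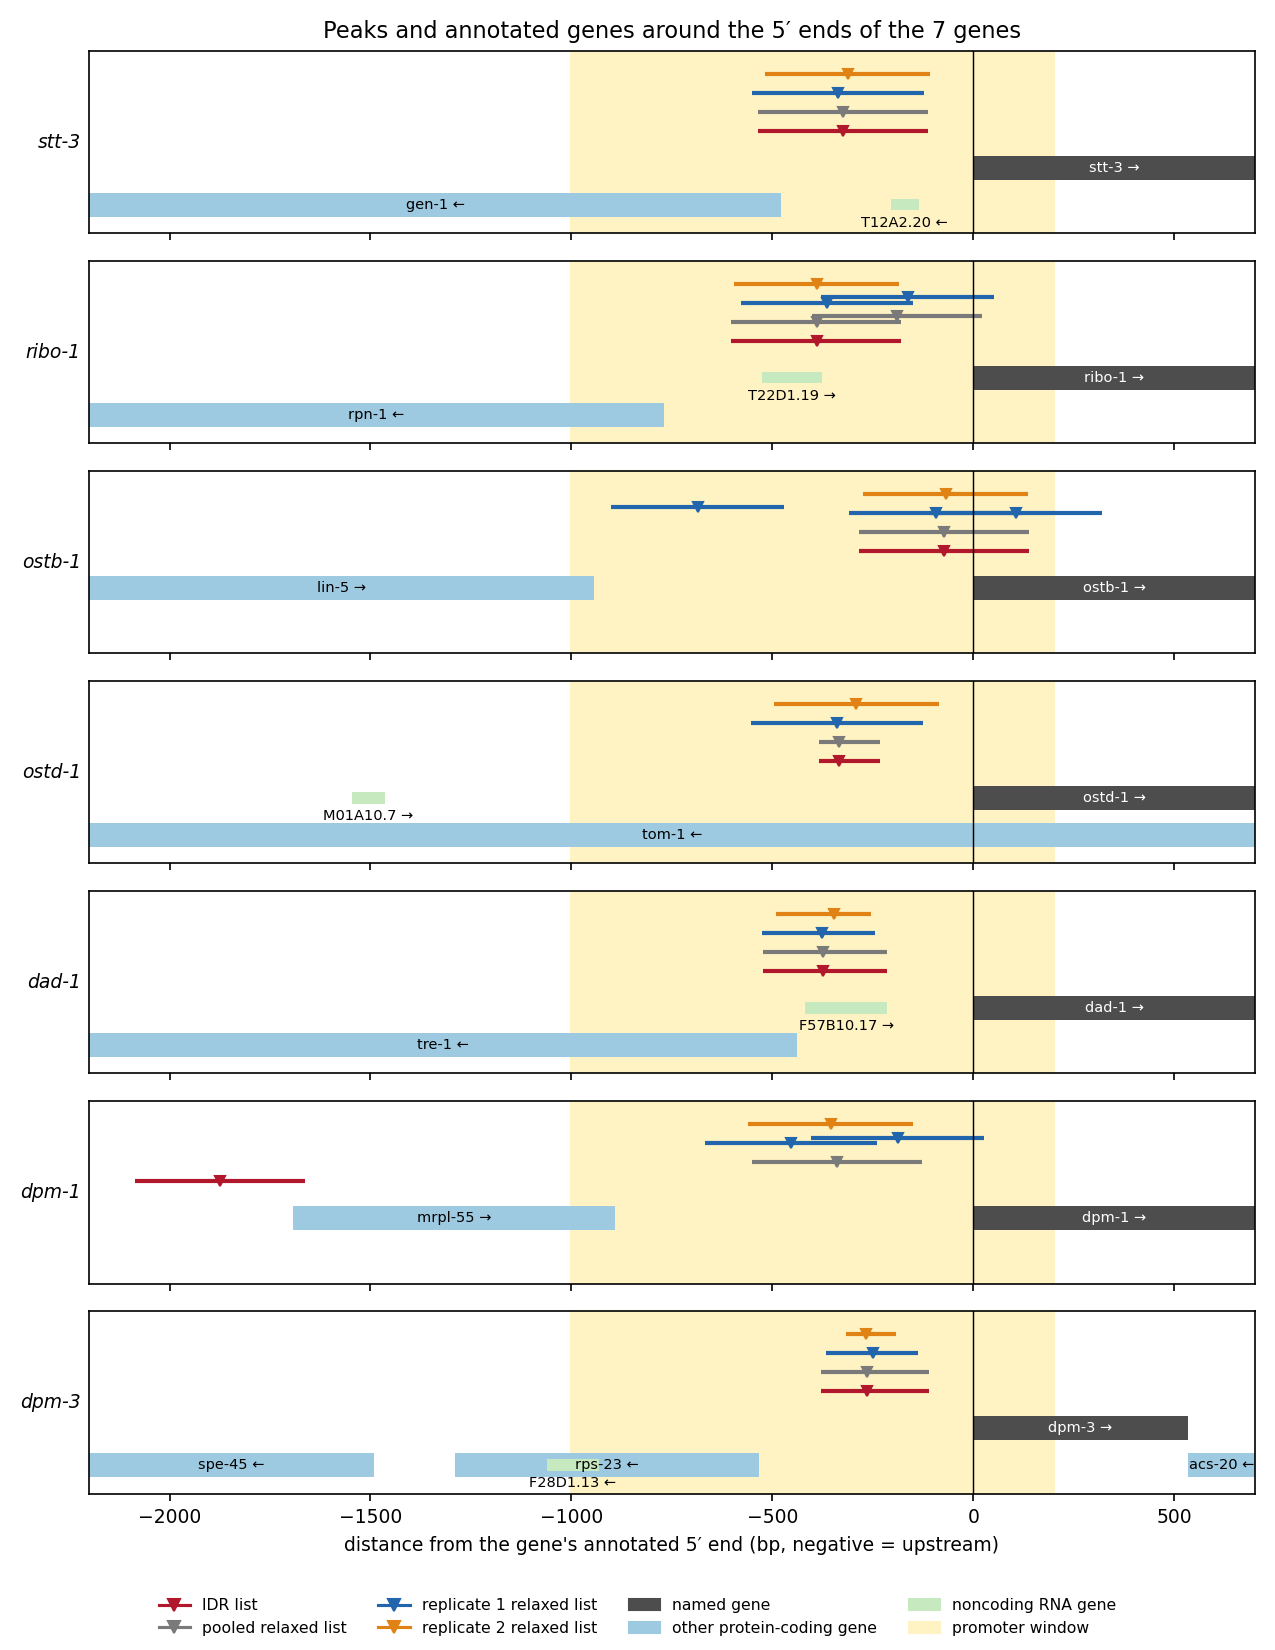
Peaks and annotated genes around the 5′ ends of the 7 genes, drawn so that each named gene runs to the right. The horizontal axis is the distance from the annotated 5′ end in bp, coloured lines are peak intervals with triangles at their summits, and only peaks with a summit in the shaded window are drawn, except the IDR peak nearest to dpm-1, at 1874 bp upstream. In 6 panels the IDR summit lies 72 to 390 bp upstream.

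The sequence under the summits is shown for 4 of the genes with an IDR peak, and for dpm-1 as the contrast without such a peak. Each is 101 bases of build ce11 (RefSeq sequence of WBcel235) centred on the summit, on the plus strand, which is the coding strand of all 5 genes. Capitals mark, on either strand, TGACGT, the core bound by CREB-type factors, and GACGTG, which overlaps it by 5 letters. They also mark CCACG on either strand, a short part of ER stress elements, the rest of which was not sought. The windows are chrII:7864385-7864485 for ostb-1, chrIV:6910243-6910343 for ribo-1, chrIII:6248262-6248362 for stt-3, chrIV:12391272-12391372 for dpm-3 and chrIV:445287-445387 for the pooled relaxed summit of dpm-1.
ostb-1: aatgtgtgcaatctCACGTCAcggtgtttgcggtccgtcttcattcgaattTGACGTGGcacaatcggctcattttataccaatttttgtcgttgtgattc
ribo-1: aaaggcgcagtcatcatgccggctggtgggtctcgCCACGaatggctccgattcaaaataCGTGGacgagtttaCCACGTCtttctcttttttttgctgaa
stt-3: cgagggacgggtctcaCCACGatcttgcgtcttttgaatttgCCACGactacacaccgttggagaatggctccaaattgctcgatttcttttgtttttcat
dpm-3: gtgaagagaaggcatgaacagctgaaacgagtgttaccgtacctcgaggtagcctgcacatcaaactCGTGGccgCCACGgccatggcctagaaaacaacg
dpm-1: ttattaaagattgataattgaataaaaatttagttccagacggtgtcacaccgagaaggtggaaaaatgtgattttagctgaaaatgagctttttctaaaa

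Of the 5 oligosaccharyltransferase genes among the 7, that of the catalytic subunit had the weakest IDR peak. This gene, stt-3 (III, 6248637 to 6251607, plus strand), had its IDR peak at III, 6248100 to 6248523, with the summit 325 bp upstream of the 5′ end and a signal of 96.2. In replicate 1 the peak had a signal of 44.4 at rank 2435 of 26463. In replicate 2 it had a signal of 53.2 at rank 1404 of 22592. It was thus beyond the 2372 strongest peaks in replicate 1 and within them in replicate 2. Without replicate 2, that is, with the 2372 strongest peaks of replicate 1 in place of the IDR list, 5 of the 7 genes had a summit in the window, and stt-3 was the gene lost. Of the 1550 genes with an IDR summit, 1176 had a higher signal than stt-3.

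The genes ribo-1 and ostd-1 encode ribophorin I and the homologue of ribophorin II, noncatalytic subunits, and had peaks of like rank. For ribo-1 (IV, 6910683 to 6912865, plus strand) the IDR peak (IV, 6910081 to 6910504) had a signal of 176 at rank 632, with the summit 390 bp upstream. Its signal was 85.6 in replicate 1, at rank 793, and 89.8 in replicate 2, at rank 552. The summit lay inside an annotated noncoding RNA gene, T22D1.19 (IV, 6910158 to 6910307), on the same strand as ribo-1. A second, weak summit of the pooled list lay 189 bp upstream with a signal of 25.5, and replicate 1 had a weak summit 163 bp upstream. For ostd-1 (I, 5549149 to 5550295, minus strand) the IDR peak (I, 5550528 to 5550679) had a signal of 185 at rank 585, and its summit lay 334 bp upstream. The replicate peaks had signals of 97.0 at rank 638 and 89.3 at rank 558. This gene lies on the opposite strand within tom-1 (I, 5546118 to 5561689), and the summit fell in an intron of tom-1, a gene for a tomosyn protein of vesicle release.

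The peak of ostb-1 lay closest to its gene, and that of dad-1 was the strongest of the 7 genes. The gene ostb-1 (II, 7864507 to 7866255, plus strand) encodes the homologue of the mammalian OST48 subunit. Its IDR peak (II, 7864223 to 7864646) had a signal of 146 at rank 885, with the summit 72 bp upstream, and it was the only IDR peak of the 6 that covered the annotated 5′ end. In replicate 1 its signal was 76.1 at rank 993, and in replicate 2 it was 65.5 at rank 970. The gene dad-1 (I, 6553481 to 6554290, minus strand) encodes a small subunit, known in mammals as defender against cell death. Its IDR peak (I, 6554506 to 6554813) had a signal of 539 at rank 109, in the first 4.60% of the IDR list. Of the genes with an IDR summit, 110 of 1550 (7.10%) had a higher signal. Replicate 1 gave a signal of 275 at rank 117 and replicate 2 a signal of 263 at rank 102. The summit, 374 bp upstream, fell in the exon of a noncoding RNA gene, F57B10.17 (I, 6554504 to 6554709), on the same strand as dad-1.

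The 2 genes of dolichol-phosphate mannose synthesis were unlike each other. The gene dpm-3 (IV, 12391587 to 12392120, plus strand) encodes the subunit that in mammals holds the enzyme in the ER membrane. Its IDR peak (IV, 12391208 to 12391476) had a signal of 296 at rank 247, with the summit 265 bp upstream. The signal was 178 at rank 225 in replicate 1 and 119 at rank 330 in replicate 2. The gene of the catalytic subunit, dpm-1 (IV, 445677 to 448449, plus strand), had no IDR summit in its window. Its pooled relaxed peak (IV, 445125 to 445548) had a signal of 34.9, with the summit 340 bp upstream. In replicate 1 the window held summits 454 and 188 bp upstream, with signals of 12.8 and 11.4 at ranks 21609 and 25498, near the end of the list. In replicate 2 it held a summit 355 bp upstream with a signal of 19.3 at rank 9887. The nearest IDR summit lay 1874 bp upstream of dpm-1 (signal 168, rank 682) and 182 bp upstream of mrpl-55, a gene of the mitochondrial ribosome on the same strand. With a window of 2000 bp that summit brought the count to 7 of 7, while so wide a window held an IDR summit for 10.1% of all genes.

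**Figure D2:**
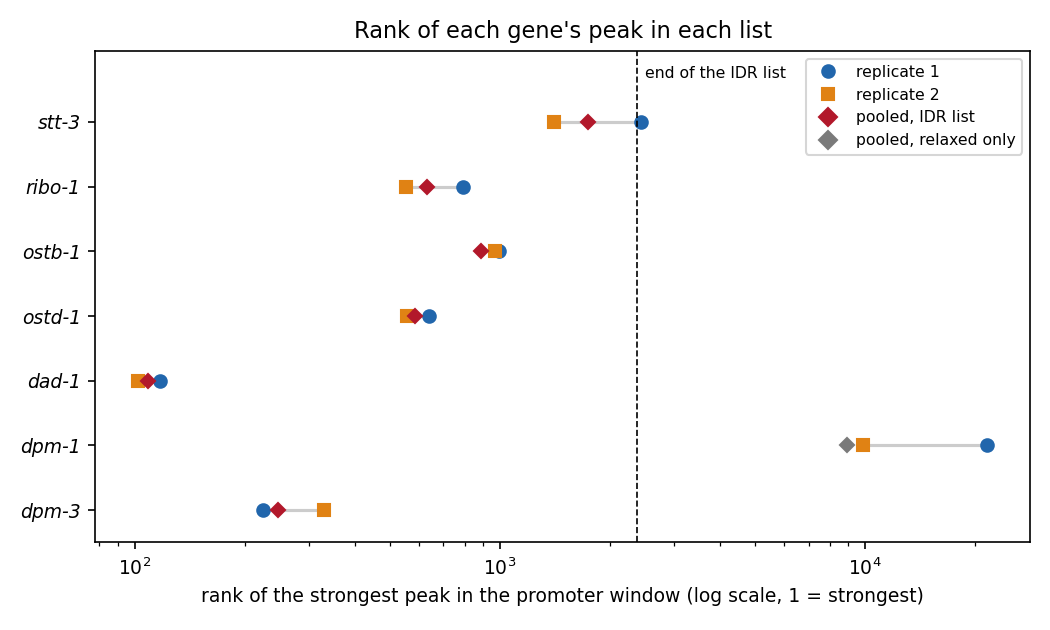
Rank of the strongest peak in each gene's promoter window, on a log scale, in the relaxed lists of replicates 1 and 2 and in the pooled data. The dashed line marks the 2372 peaks of the IDR list, and stt-3 and dpm-1 are the genes with a replicate rank beyond it.

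Both replicates had a relaxed summit in the window of each of the 7 genes, whereas 23.0% of all protein-coding genes had one in both. Relaxed summits of replicate 1 lay in 35.8% of all windows and those of replicate 2 in 32.8%. At the 6 genes with an IDR peak, the strongest summits of the 2 replicates lay 17 bp (dpm-3) to 49 bp (ostd-1) apart. At dpm-1 they lay 99 bp apart, and the replicate 1 summit was 114 bp from the pooled summit. The IDR list was derived from both replicates and held the 2372 strongest peaks of their pooled data. Agreement of the replicates at its 6 peaks is therefore no independent check. Of the 6 genes, 5 were in reach of the 2372 strongest peaks of replicate 1, with 7.79% of all genes, and 6 were in reach of those of replicate 2, with 7.44% of all genes.

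Of the 6 IDR summits, 4 lay between the gene and a protein-coding gene on the opposite strand, in the promoter windows of both. Among all 1238 IDR summits in a promoter window, 364 (29.4%) lay in the windows of several protein-coding genes, on either strand. Counted by gene, 712 of the 1550 genes with an IDR summit (45.9%), or 3.56% of all protein-coding genes, had only summits that were shared, beside 4 of the 6 here. The ribo-1 summit lay 380 bp upstream of rpn-1, a subunit gene of the proteasome cap, and 390 bp upstream of ribo-1. The dpm-3 summit lay 269 bp upstream of rps-23, a gene of the small ribosomal subunit, and 265 bp upstream of dpm-3. These 2 summits stood near the middle between the genes. The stt-3 summit lay 154 bp from gen-1, which encodes a nuclease of DNA repair, and 325 bp from stt-3. The dad-1 summit lay 65 bp from tre-1, a gene for trehalase, and 374 bp from dad-1. Only ostb-1 and ostd-1 had a summit in the promoter window of no other protein-coding gene, and that of ostd-1 lay in an intron of tom-1. When each summit was given only to the nearest 5′ end, 3 of the 7 genes kept an IDR summit (ostb-1, ostd-1 and dpm-3), and 5.95% of all protein-coding genes had one. The peaks alone do not say which gene of a pair the binding belongs to, nor whether that at ostd-1 belongs to ostd-1 or tom-1.

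The 6 IDR summits all lay upstream of the annotated 5′ end, at 72 to 390 bp, beside a median of 242 bp upstream over all 1550 genes with an IDR summit. The middle 50% of those genes ranged from 120 to 434 bp upstream. The annotated 5′ ends of the 7 genes lay 0 to 10 bp before the first start codon. In this species many messenger RNAs receive a spliced leader that replaces their original 5′ end, so that these distances run to the annotated end and not to a known start of transcription. The gene dpm-1 had annotated transcript starts spread over 2414 bp, and using every transcript's 5′ end left the count of genes with an IDR summit at 6.

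The CREB-type core TGACGT stood at few of the summits, and the shorter string CCACG at most. The core TGACGT lay within 50 bp of the summit of ostb-1 and of none of the other 5, beside 8.22% of all 2372 IDR summits. In ostb-1 it occurred 2 times, as shown above, with centres 32.5 bp before and 3.5 bp after the summit. The site nearer the summit was TGACGTGG, found at 1.90% of IDR summits and in 0.190% of windows of the same length centred 250 bp upstream of all protein-coding genes. GACGTG lay within 50 bp at ostb-1 and ribo-1, beside 7.04% of IDR summits and 2.03% of those promoter windows. Within 100 bp it also lay at ostd-1, beside 10.9% of IDR summits. That site was centred 49.5 bp from the summit and crossed the edge of the smaller window. It shares bases with a CCACG site centred 51 bp from the summit. TGACGT was in 3.28% of the promoter windows.

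CCACG lay within 50 bp of 5 of the 6 summits, and within 25 bp of the same 5. The share was 23.5% of all IDR summits and 7.26% of promoter windows within 50 bp, and 13.9% of IDR summits within 25 bp. As printed above, ribo-1 had 3 such sites, and the last of these shares bases with its GACGTG. The genes stt-3 and dpm-3 had 2 each, and ostb-1 had 1, which is the end of TGACGTGG. The gene ostd-1 had 1, with its centre 6 bp from the summit. The exception was dad-1, the strongest peak, whose nearest CCACG was centred 90 bp from the summit. The control string TGCAGT, which is the CREB-type core written backwards, lay at dad-1 and at none of the others, beside 6.58% of IDR summits. No motif of these 5 lay in the window of the pooled summit of dpm-1. The 6 windows held 43.6 to 55.4% G and C, near or above the median of 44.6% over all IDR summits, and the dpm-1 window held 29.7%, beside a median of 33.7% over the promoter windows. The part of base composition in the CCACG count was not tested.

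The rest of the pathway had IDR summits at fewer genes. The 1 further subunit gene of the oligosaccharyltransferase on the list, ZK686.3 (of the OST3 type), had an IDR summit 124 bp downstream of its 5′ end with a signal of 83.9 at rank 2152, near the end of the list. Its strongest replicate summits stood at ranks 3146 and 2453, both beyond the 2372 strongest. They lay 18 bp downstream of the 5′ end in replicate 1 and 22 bp upstream in replicate 2. Both were more than 100 bp from the pooled summit. Of the 15 genes that build the lipid-linked oligosaccharide, 2 had an IDR summit, 5 had a pooled relaxed summit only and 8 had none. The 2 were algn-14, a subunit gene of the enzyme that adds the second N-acetylglucosamine (signal 110, rank 1392, 99 bp upstream), and algn-5, for dolichol-phosphate glucose synthase (signal 83.1, rank 2172, 516 bp upstream). Each shared its summit, algn-14 with M02B7.2 and algn-5 with Y45G5AM.9. The gene algn-6, for a glucosyltransferase, missed the IDR list narrowly, with a pooled signal of 77.3 at rank 2407. None of the 7 genes of GPI anchor synthesis had an IDR summit, and 4 had a pooled relaxed summit only. These 3 lists may be read beside the 7.76% of all protein-coding genes with an IDR summit and the 36.4% with a pooled relaxed summit.

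Grouped by enzyme role, a grouping made after the values were seen, the 6 listed oligosaccharyltransferase genes all had an IDR summit. Of 3 genes of dolichol-phosphate sugar synthases (dpm-1, dpm-3 and algn-5), 2 had an IDR summit and 1 a pooled relaxed summit only. The 6 mannosyltransferase genes that use dolichol-phosphate mannose had none. Of these, algn-3, algn-9, algn-12 and pigv-1 had no pooled summit in the window, and pigm-1 and pigb-1 had relaxed summits with signals of 48.9 and 48.0. Across the whole annotation, the window held an IDR summit in 7.76% of cases and a pooled relaxed summit in 36.4%. The lack of IDR summits at the 6 mannosyltransferase genes therefore does not set them apart from most genes. Nor do relaxed summits at 2 of these 6. The groups by enzyme role are small, and no test was made between them.

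Most genes of the translocation channel and the translocon-associated complex, beside which the oligosaccharyltransferase works, had stronger peaks than any of the 7. IDR summits lay in the windows of 6 of the 8 listed genes, with signals from 1680 at trap-4 to 9329 at trap-2, beside 539 at dad-1. Ranks were 3 to 35 at those 6 genes and 109 to 1743 at the 6 genes described here with an IDR summit. The genes trap-3 and sec-61.B had the same peak, with a signal of 7275 at rank 6. The summits of trap-2, sec-61.G and trap-4 were each shared with a gene outside the list, and only that of trap-1 was not shared. Of the other 2 translocation genes, sec-61.A had in its window only a pooled relaxed summit with a signal of 47.1 at rank 4968, weaker than 6 of the 7, while an IDR summit with a signal of 4933 lay 258 bp downstream of its 5′ end, just outside the window. The gene tram-1 had no pooled summit in the window, and its nearest IDR summit, with a signal of 2049, lay 1124 bp upstream. This list was known from earlier results to hold the strongest peaks, so that it is no independent comparison.

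**Figure D3:**
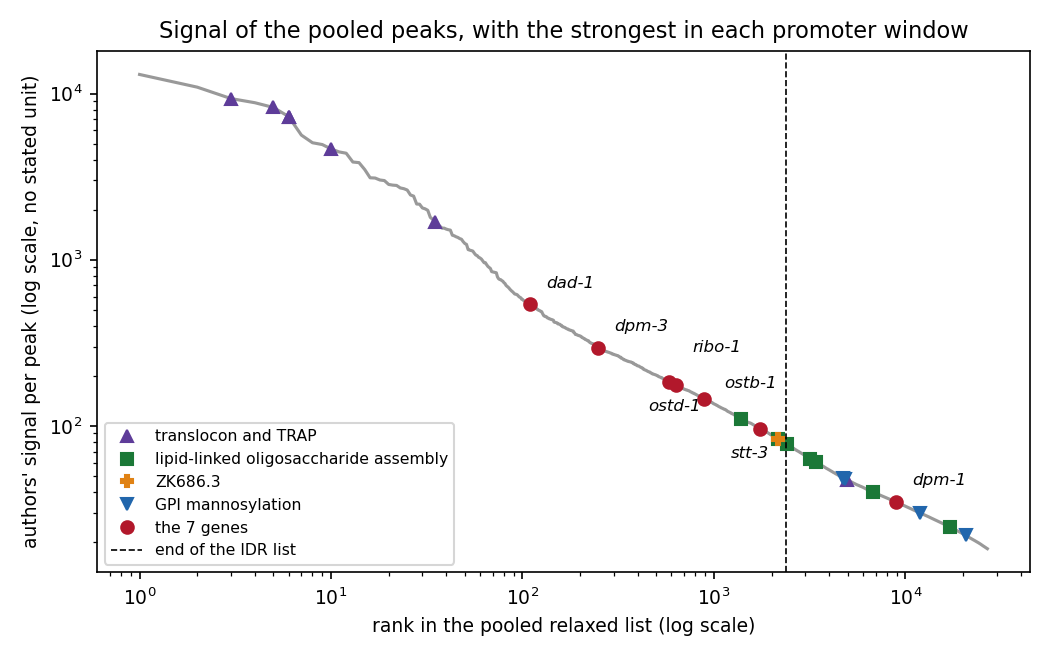
Authors' signal per peak against rank in the pooled relaxed list, both on log scales, for all 26789 peaks (grey line), with the strongest peak in each listed gene's promoter window. The 6 genes with an IDR peak lie between ranks 109 and 1743, below the genes of the translocon and the translocon-associated complex (TRAP) that have an IDR summit in the window and left of the end of the IDR list (dashed), and dpm-1 lies to the right of it.

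**Figure D4:**
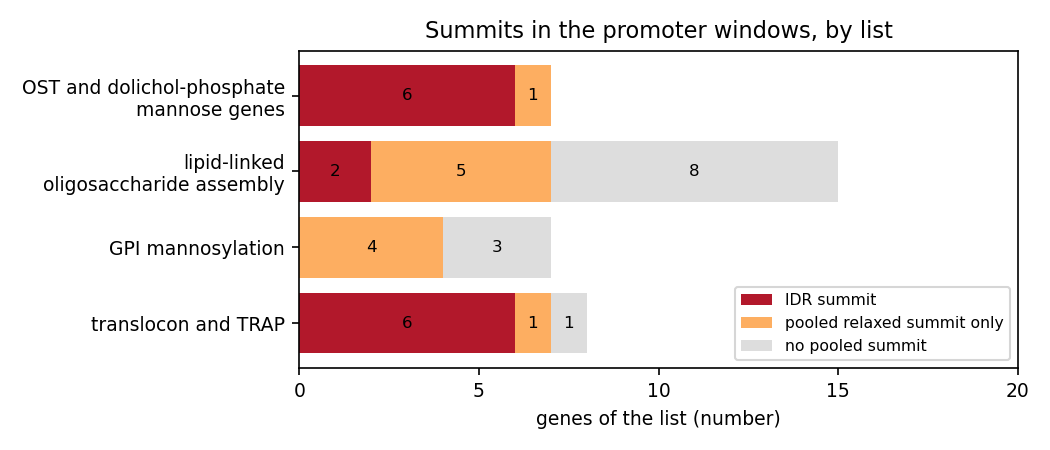
Number of genes with an IDR summit, with a pooled relaxed summit only and with no pooled summit in the promoter window, for 4 lists. The 7 genes described here have 6, 1 and 0, and the 15 genes of lipid-linked oligosaccharide assembly have 2, 5 and 8.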

How the data were processed

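ChIP-seq peak lists of 2 biological replicates of 1 group were used, grouped by the replicate numbers in the labels. The authors deposited 4 narrowPeak lists on ce11 (each replicate, pooled, IDR) and 4 on ce10, called against 1 control file per build per the deposited descriptions. The ce10 lists were not used here, as the gene annotation was of ce11 coordinates. How reads were aligned and peaks called is not given in the sources used here. For signal per peak, the authors stated no scale in the deposited files, and the deposited −log10 q-value was tied for 2252 of 2372 IDR peaks, so lists were ranked by signal. No read counts were analysed here, so depth is unknown.

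Summits were placed at 5′ ends of Ensembl release 115 gene models. Coordinates are 1-based. Motifs were sought on both strands in RefSeq sequence. Placement and motif search were tested on simulated data. The members and gene lists were chosen with earlier results of these data known. Of the listed symbols, ostc-1, tusc-3, magt-1, dpm-2, sec-62 and sec-63 did not match the annotation and were left out. Genes named are the 7, those sharing their summits or next to the nearest IDR summit, and listed genes with an IDR summit. The pathway genes named without an IDR summit (algn-6, algn-3, algn-9, algn-12, pigv-1, pigm-1, pigb-1) and the translocation genes were chosen after their values were seen. Alternatives were other windows, nearest 5′ end, transcript ends, a stricter list, each replicate left out, other overlap rules and other motif windows. Calculations were run in Python 3.11.15 with pandas 2.3.3, numpy 2.4.6 and scipy 1.17.1, and figures drawn with matplotlib 3.10.9.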

Additional observations from a re-analysis of the deposited data

How the results depend on the processing

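The count of 6 genes with an IDR summit in the window ranged from 5 to 6 when a replicate was left out, stayed at 6 with a window of 500 bp, was 7 with 2000 bp and 5 in the stricter 50% of the IDR list, and fell to 3 when each summit went only to the nearest 5′ end. That setting removes genes whose neighbour lies nearer, by construction. The share of all protein-coding genes, 7.76%, was 6.24% with 500 bp, 10.1% with 2000 bp, 8.47% with every transcript's 5′ end, 5.95% with the nearest 5′ end only and 4.25% in the stricter list, and ranged from 7.44 to 7.79% when a replicate was left out. The number of genes with a pooled relaxed summit was 7, or 5 with the nearest 5′ end only. Relaxed summits in both replicates were found at 7 genes, at 6 when summits had to lie within 100 bp of the pooled summit (dpm-1 lost) and at 5 when peaks had to cover 50% of each other (dpm-3 and ostd-1 lost). The pooled ostd-1 peak was 152 bp wide, beside 430 and 410 bp in replicates 1 and 2. The dpm-3 peak was 125 bp wide in replicate 2, beside 269 bp in the pooled list. Peaks of such unlike widths cannot cover 50% of each other, so these losses do not bear on whether the summits repeat. The count of 1 gene with TGACGT was 2 with GACGTG in its place, and 1 with TGACGTGG, in windows of 25 and 100 bp, in the stricter list and without either replicate. With GACGTG the count was 1 within 25 bp and 3 within 100 bp. No paired analysis was possible because there is 1 group. Without read counts, depth cannot say whether dpm-1 lacks binding or lies below detection.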
